A study of Homo sapiens with 12 samples.

Results

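The transcripts described here are 8 carriers of glutamate and other amino acids, SLC1A1, SLC1A3, SLC1A4, SLC1A5, SLC3A2, SLC7A5, SLC7A11 and SLC38A2, out of 11963 genes named by probe sets with 1 gene symbol. They were chosen by symbol and are read by 15 probe sets, where the array has 22215 that are not controls. The large difference of SLC1A3 in the Detroit comparison was known when the list was drawn up. All values of that comparison are therefore a description, with no p-value, and nothing is read from a test of it. RNA was measured on 12 Affymetrix arrays from 3 established head and neck cancer lines, labelled Detroit, Fadu and OECM1, each as an invasion subline, selected through Matrigel for strong invasiveness, and as parent cells, with 2 arrays in each of the 6 groups. Fadu came from a squamous carcinoma of the hypopharynx, OECM1 from one of the oral cavity. The labels do not say which Detroit line was used or whether a subline is 1 clone. The labels name no engineered allele and no drug.

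Amino acid carriers work as linked systems. SLC1A3 and SLC1A1 bring glutamate and aspartate into cells together with sodium. SLC1A4 and SLC1A5 exchange neutral amino acids, SLC1A5 mainly glutamine. SLC7A11 imports cystine, the precursor of cysteine for glutathione, in exchange for glutamate, while SLC7A5 imports large neutral amino acids such as leucine, and both need the heavy chain SLC3A2 to reach the membrane. SLC38A2 takes up small neutral amino acids with sodium and is raised when amino acids are scarce. The transcription factor ATF4, which acts when amino acids run short or proteins misfold, is known to induce several of these genes, and NRF2, the factor of the oxidant response, induces SLC7A11. In build GRCh38.p14 (RefSeq) the genes lie on 8 chromosomes, SLC1A4 at chr2:64988479-65023865, SLC7A11 at chr4:138164097-138242349, SLC1A3 at chr5:36596588-36688334, SLC1A1 at chr9:4490468-4587469, SLC3A2 at chr11:62856109-62888860, SLC38A2 at chr12:46358188-46372773, SLC7A5 at chr16:87830023-87869507 and SLC1A5 at chr19:46774883-46788594.

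The arrays did not all sort by their labels. Over 15124 probe sets, the labelled Detroit subline, taken as the mean of its arrays, differed from the Fadu parent mean by a root mean square of 0.435 on the log2 scale and from the Detroit parent mean by 0.753, while subline and parent differed by 0.339 in Fadu and 0.384 in OECM1. Duplicates differed most in that group, by a root mean square of 0.873, against 0.429 to 0.743 in the other groups. All Detroit values therefore compare libraries as labelled. Of 5 measured squamous epithelial markers, all 5 were above the limit for dim probe sets in both arrays of the labelled Detroit subline and of both Fadu groups, 4 in both OECM1 groups and 3 in the Detroit parent. The basal keratin KRT14 was below that limit, a log2 value of 4.52, on average in the Detroit parent (4.05), the OECM1 subline (3.95) and the OECM1 parent (4.42). Of 6 fibroblast markers 1 to 3 were above it in both arrays of a group, of 4 endothelial markers 0 or 1, and of 3 leukocyte markers 1 or 2. None of 3 astrocyte markers, the cell type best known for SLC1A3, was above the limit in both arrays of any group. Bulk RNA cannot tell fewer cells with a transcript from less transcript per cell.

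**Figure D1:**
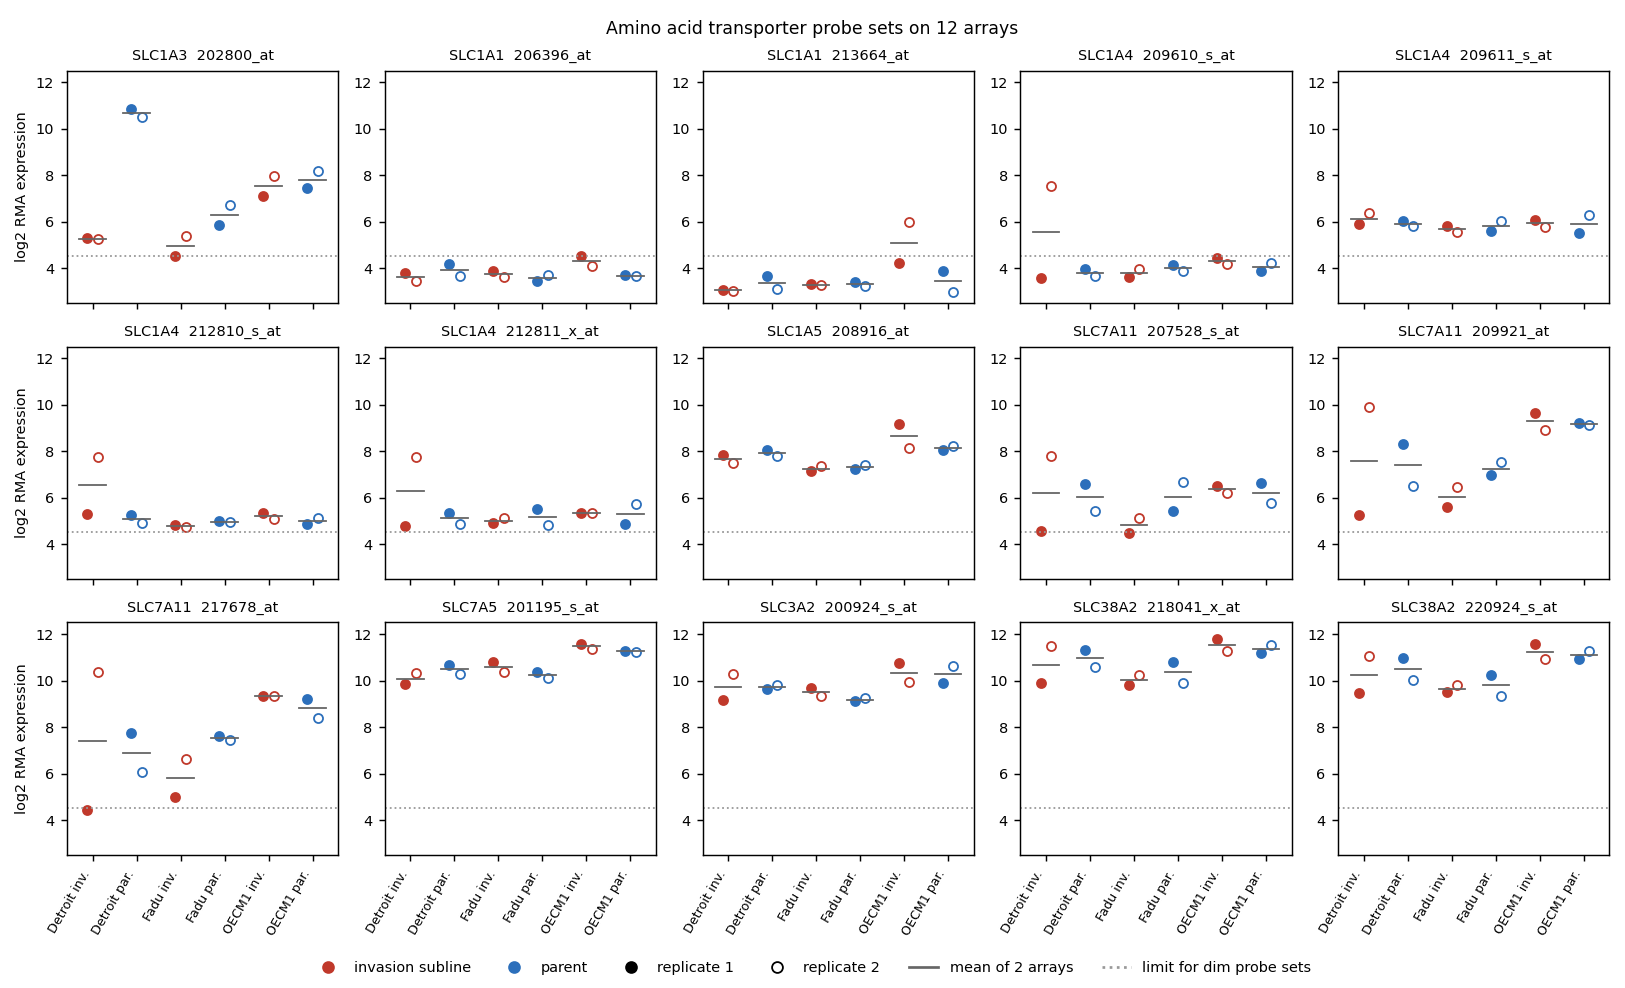
Log2 RMA expression of the 15 probe sets (1 panel each) in the 6 groups, with filled points for replicate 1, open points for replicate 2, a bar at the mean of 2 arrays, and the limit for dim probe sets at 4.52 as a dotted line. SLC1A3 is near 10.7 only in the Detroit parent, and SLC7A11 and 3 of 4 SLC1A4 probe sets are high in replicate 2 but not in replicate 1 of the labelled Detroit invasion subline.

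SLC1A3, the glial type glutamate transporter, varied most among the members. It had 5.31 and 5.26 in the labelled Detroit subline, against 10.86 and 10.52 in the Detroit parent. The Fadu invasion subline had 4.54 and 5.39 and the Fadu parent 5.87 and 6.72. The OECM1 invasion subline had 7.11 and 7.96 and the OECM1 parent 7.44 and 8.17. The Detroit parent thus stood above every other array, and the labelled Detroit subline differed from the Detroit parent by -5.40 on the log2 scale, a 42.3-fold lower signal. In order of mean level, the Detroit parent (10.69 ± 0.239, SD, n = 2) was followed by the OECM1 parent (7.81 ± 0.516), the OECM1 subline (7.53 ± 0.605), the Fadu parent (6.30 ± 0.602), the labelled Detroit subline (5.29 ± 0.0395) and the Fadu subline (4.97 ± 0.602). The arrays of the 2 OECM1 groups overlapped, as did those of the labelled Detroit subline and the Fadu subline, while the other neighbours in this order did not. The labelled Detroit subline lay 1.01 below the Fadu parent, with no overlap. Replicate 2 exceeded replicate 1 by 0.73 to 0.86 in each of the 4 Fadu and OECM1 groups, but not in the Detroit groups, where it was lower by 0.06 in the labelled subline and 0.34 in the parent.

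The genes whose profile over the 12 arrays lay nearest to SLC1A3, after each gene's own mean was subtracted, were EHF, PLAT, PLAAT3, TMT1A and MALL, with root mean square differences of 0.585, 0.733, 0.765, 0.830 and 0.874 among 8992 genes, where the median gene was at 1.96. EHF, an ETS transcription factor of epithelia, averaged 3.39 in the labelled Detroit subline and 7.89 in the Detroit parent. PLAT, the tissue plasminogen activator, averaged 4.0 and 9.01 in the same groups. PLAT averaged 7.29 in the OECM1 subline and 6.45 in the OECM1 parent, against 4.31 in the Fadu subline and 5.27 in the Fadu parent. Within OECM1 its subline mean was thus above its parent mean, the reverse of SLC1A3. All 5 genes were picked for likeness over these same arrays, so their likeness is no separate result. The 12 arrays are 6 pairs of duplicates and not independent points.

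SLC1A3 has 3 start sites among the RefSeq promoters of build GRCh38.p14, on chromosome 5, and the one that matches the ATF4 response element is shown here, since SLC1A3 has the widest range of the set. It is chr5:36596338-36596597 on the plus strand, 250 bases before the start and 10 after it. Capitals mark TGATGNAAN (CARE, the element bound by ATF4 with a C/EBP partner), whose first base lies at -220.
SLC1A3 promoter: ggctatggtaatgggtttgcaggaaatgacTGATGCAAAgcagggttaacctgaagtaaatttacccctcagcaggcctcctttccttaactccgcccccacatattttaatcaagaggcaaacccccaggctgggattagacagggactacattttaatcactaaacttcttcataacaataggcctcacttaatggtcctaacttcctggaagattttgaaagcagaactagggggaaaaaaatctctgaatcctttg
A match to this pattern of 9 letters, on either strand, occurs in 3.61% of 35116 promoter windows of 300 bases, so a match is a description of the sequence and not a binding site.

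SLC1A1, the other glutamate transporter of the set, was at the edge of detection. Both of its probe sets exceeded the dim limit on 1 of 12 arrays and were not tested. Probe set 206396_at had 4.55 and 4.09 in the OECM1 subline, against 3.72 and 3.68 in the OECM1 parent, and between 3.45 and 4.18 on the other 8 arrays. Probe set 213664_at had 4.24 and 5.99 in the OECM1 subline, against 3.89 and 3.01 in the OECM1 parent. In both probe sets the 2 OECM1 subline arrays were above the 2 OECM1 parent arrays, by 0.62 and 1.66 on average, but with values this low the size is not reliable. Only 1 array, OECM1 subline replicate 2, gave a value clearly above the limit.

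SLC1A5, the glutamine exchanger, was measured well above the limit on all 12 arrays. It had 7.82 and 7.51 in the labelled Detroit subline, against 8.05 and 7.82 in the Detroit parent. The Fadu subline had 7.17 and 7.35, against 7.24 and 7.41 in the Fadu parent, and the OECM1 subline had 9.18 and 8.16, against 8.05 and 8.25 in the OECM1 parent. Subline and parent overlapped in Fadu and in OECM1, and the 4 Fadu arrays were the 4 lowest of the 12. SLC7A5, the leucine importer, had 11.58 and 11.35 in the OECM1 subline, against 11.29 and 11.23 in the OECM1 parent. It had 10.79 and 10.37 in the Fadu subline, against 10.36 and 10.13 in the Fadu parent. All 4 OECM1 arrays lay above all other arrays for SLC7A5, and in both lines the 2 subline arrays were above the 2 parent arrays, by 0.34 in Fadu and 0.21 in OECM1. In the labelled Detroit subline it had 9.86 and 10.32, against 10.69 and 10.30 in the Detroit parent.

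SLC3A2, the heavy chain partner of SLC7A5 and SLC7A11, had 10.74 and 9.93 in the OECM1 subline, against 9.90 and 10.63 in the OECM1 parent. The Fadu subline had 9.67 and 9.32, against 9.12 and 9.26 in the Fadu parent, so that the Fadu groups did not overlap, at a distance of 0.31 between means. SLC38A2 was read by 2 probe sets that gave the same order of groups. By 220924_s_at it had 11.56 and 10.91 in the OECM1 subline, against 10.95 and 11.28 in the OECM1 parent, and 9.50 and 9.79 in the Fadu subline, against 10.24 and 9.35 in the Fadu parent. Subline and parent thus overlapped within each line, while every OECM1 array lay above every Fadu array.

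SLC7A11, the cystine importer, was the second most variable gene. By its brightest probe set, 209921_at, it had 5.28 and 9.89 in the labelled Detroit subline, against 8.32 and 6.53 in the Detroit parent. The Fadu subline had 5.59 and 6.47, against 6.96 and 7.55 in the Fadu parent, and the OECM1 subline had 9.66 and 8.91, against 9.23 and 9.13 in the OECM1 parent. Both Fadu subline arrays were below both Fadu parent arrays, and the 4 OECM1 arrays lay above the 4 Fadu arrays. Probe set 217678_at gave the same picture, with 4.99 and 6.64 in the Fadu subline, against 7.61 and 7.44 in the Fadu parent, and 8.39 to 9.36 in OECM1. The dimmer 207528_s_at also had both Fadu subline arrays (4.48 and 5.15) below both Fadu parent arrays (5.43 and 6.66), but its OECM1 values, 5.80 to 6.64, overlapped those of Fadu.

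The genes nearest to SLC7A11 in profile were LOXL2, MAP1LC3B, ATXN1, YPEL5 and ARG2, at root mean square differences of 0.641 to 0.800 (the median of 8992 genes was 1.60). These genes too were picked for likeness over these same arrays, so the levels given for them are no separate result. LOXL2, a lysyl oxidase of the matrix, averaged 10.65 in the OECM1 subline and 10.41 in the OECM1 parent, against 7.41 in the Fadu subline and 8.48 in the Fadu parent. MAP1LC3B, an autophagosome protein gene, averaged 8.80 in the OECM1 subline and 9.05 in the OECM1 parent, against 6.54 in the Fadu subline and 7.29 in the Fadu parent.

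The 4 probe sets of SLC1A4, a neutral amino acid exchanger, did not behave alike. Probe set 212810_s_at had 5.31 and 7.75 in the labelled Detroit subline, against 5.27 and 4.90 in the Detroit parent, and 4.74 to 5.33 in the 8 Fadu and OECM1 arrays. Probe set 212811_x_at had 4.80 and 7.77 in the labelled Detroit subline, against 5.34 and 4.88 in the Detroit parent. Probe set 209610_s_at had 3.60 and 7.53 in the labelled Detroit subline, against 3.98 and 3.66 in the Detroit parent, and stayed below the dim limit on the other 11 arrays, so it was not tested. By these 3 probe sets SLC1A4 was high on a single array. The fourth, 209611_s_at, has the highest mean and stands for the gene where 1 probe set per gene is kept, yet it had 5.92 and 6.36 in the labelled Detroit subline, against 6.03 and 5.81 in the Detroit parent, and 0.83 between its lowest and highest array.

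The array on which SLC1A4 was high also had other members high. In the labelled Detroit subline, replicate 2 exceeded replicate 1 by 5.94, 4.61 and 3.25 in the 3 SLC7A11 probe sets, by 3.93, 2.97 and 2.44 in 3 SLC1A4 probe sets, by 1.60 and 1.57 in SLC38A2 and by 1.09 in SLC3A2. Of the 12 member probe sets tested, 8 had replicate 2 higher by more than 1 on the log2 scale, where 10.2% of all 15124 did. The 8 read only SLC7A11, SLC1A4, SLC38A2 and SLC3A2, most of them by more than 1 probe set, so they are not separate genes. SLC1A4 by 209611_s_at had a gap of 0.45. The largest of these gaps, 61.4-fold in SLC7A11 (217678_at), was matched or exceeded by 0.0132% of the tested probe sets. SLC1A3, SLC1A5, SLC7A5 and SLC1A1 stood apart from this, with gaps from -0.36 to 0.46. Set against the Detroit parent mean, SLC7A11 (217678_at) was -2.48 in replicate 1 and 3.46 in replicate 2, and SLC38A2 (220924_s_at) was -1.03 and 0.54, while the means of the duplicates were 0.49 and -0.24. SLC1A3 was -5.37 and -5.43 in the same arrays.

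**Figure D2:**
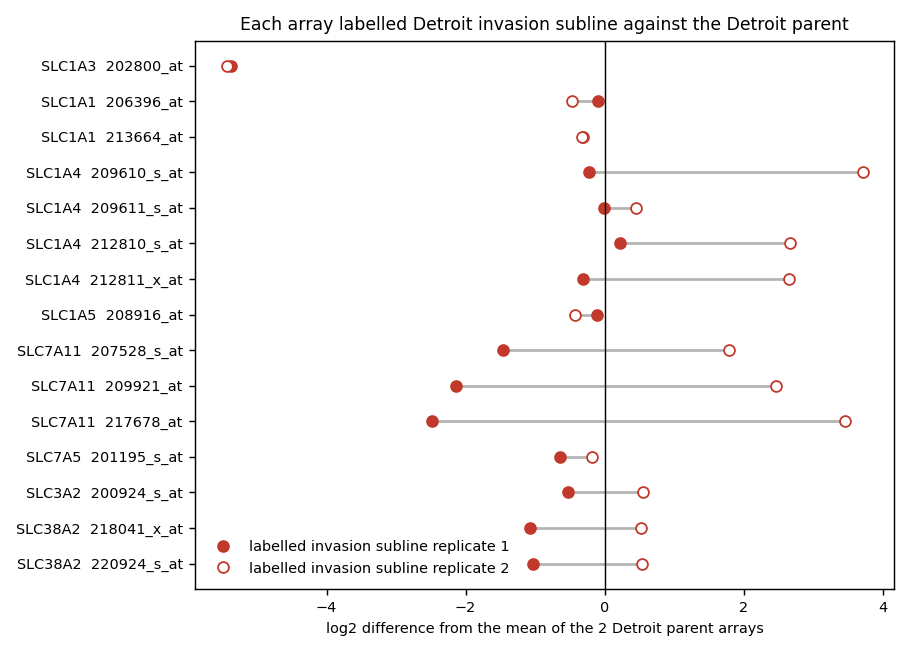
Log2 difference of each array labelled Detroit invasion subline from the mean of the 2 Detroit parent arrays, for the 15 probe sets, with replicate 1 filled and replicate 2 open. Both arrays lie near -5.4 for SLC1A3, while for SLC7A11 the arrays fall on opposite sides of 0, from -2.48 to 3.46 for the widest pair.

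Genes of 2 of 3 related lists were also mostly higher on replicate 2 than on replicate 1, where 10.2% of all probe sets were higher by more than 1 and 8.61% lower. The lists were chosen with earlier results of these data known. Their counts are therefore a description of 1 pair of arrays, and a cause of the split was not tested. Of 22 tested regulators of amino acid sensing and stress, 14 were higher in replicate 2 by more than 1 and 1 was lower by more than 1, with a median gap of 1.72. Of 23 genes of glutamine, glutamate, serine and cysteine metabolism, 13 were higher and 1 lower, with a median gap of 1.12. Of 22 other amino acid transporters, 3 were higher by more than 1 and 0 were lower, with a median gap of 0.17, so that this list was near the share of all probe sets. The widest gaps, named after their values were seen, were in the stress factors ATF3 (4.03 and 8.06 in replicates 1 and 2), TRIB3 (6.96 and 10.53) and DDIT3 (6.22 and 9.76) and in ASNS, the asparagine synthetase (8.20 and 11.60). The glutathione synthesis gene GCLC had 6.76 and 10.04, and SLC38A1, a glutamine carrier close to SLC38A2, had 8.14 and 10.90. The ACTB control probe sets also differed between these duplicates, as they did in other groups. Their signal at the 3 prime end minus that at the 5 prime end, a measure of RNA quality, was -0.28 in replicate 1 and 0.80 in replicate 2, and its part in the result was not tested. The OECM1 parent arrays, with 0.87 in replicate 1 and 0.04 in replicate 2, had 7 of the 22 regulators higher in replicate 2 by more than 1 and 2 lower, against 3.89% and 11% of all probe sets. The OECM1 subline arrays, with 0.06 and 0.63, had 0 higher and 3 lower (3.43% and 2.52% of all). In the Fadu subline (-0.05 and 0.40) 1 was higher and 0 lower (1.61% and 1.22%). The Fadu parent (0.55 and -0.23) had 0 higher and 1 lower (1.61% and 2.71%). The Detroit parent (-0.03 and -0.10) had 1 higher and 0 lower (4.87% and 4.19%).

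**Figure D3:**
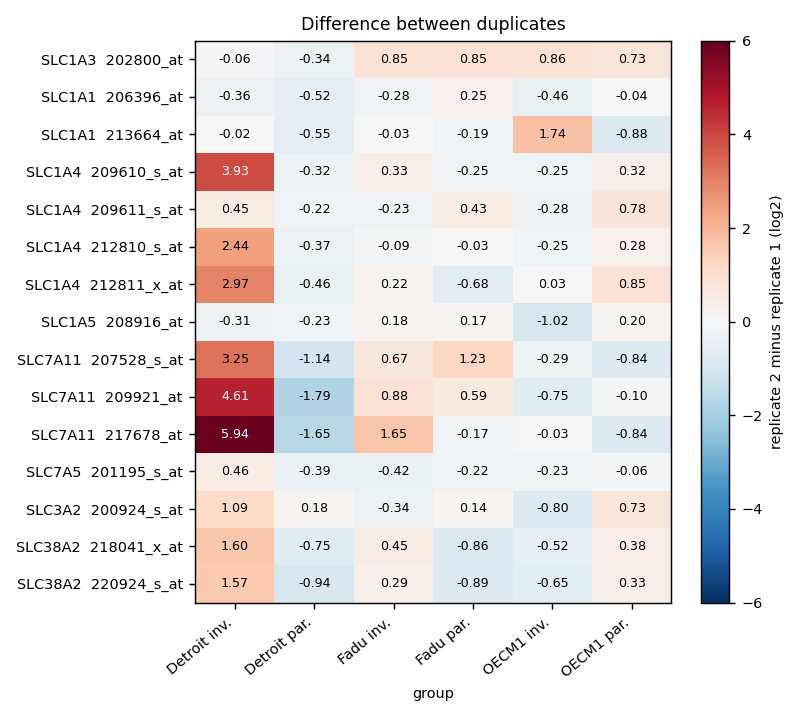
Replicate 2 minus replicate 1 (log2, colour and printed value) for each of the 15 probe sets in each group. The first column, the arrays labelled Detroit invasion subline, holds the widest gaps, up to 5.94 in SLC7A11, and in the other 5 groups gaps run from -1.79 to 1.74.

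RefSeq promoters of GRCh38.p14 were found for 7 of the 8 genes, in 14 windows of 250 bases before and 50 after a start, and SLC7A11 was the gene without one. A CARE match was present in 4 windows, of SLC1A3, SLC1A4, SLC3A2 and SLC1A5, and the antioxidant element TGACNNNGC (ARE, bound by NRF2 with small MAF proteins) in 4 windows, of SLC1A3, SLC3A2, SLC7A5 and SLC1A5. Over all 35116 windows, 13.3% hold an ARE match on either strand. The promoters of SLC1A4 and SLC3A2 are shown because both genes were split between the Detroit-labelled duplicates and also had a window with a match. That of SLC1A4 is chr2:64989149-64989408, plus strand, where capitals mark a CARE match read on the minus strand, its leftmost base at -8. That of SLC3A2 is chr11:62881449-62881708, plus strand, where capitals mark an ARE match at -37. Its window also holds a CARE match on the minus strand, with its leftmost base 37 bases into the transcript, beyond the stretch shown.
SLC1A4 promoter: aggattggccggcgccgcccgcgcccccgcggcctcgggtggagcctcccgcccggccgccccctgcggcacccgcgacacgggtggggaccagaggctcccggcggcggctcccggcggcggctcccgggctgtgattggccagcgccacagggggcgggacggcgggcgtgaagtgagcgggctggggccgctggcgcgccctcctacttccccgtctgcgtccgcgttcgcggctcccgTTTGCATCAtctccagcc
SLC3A2 promoter: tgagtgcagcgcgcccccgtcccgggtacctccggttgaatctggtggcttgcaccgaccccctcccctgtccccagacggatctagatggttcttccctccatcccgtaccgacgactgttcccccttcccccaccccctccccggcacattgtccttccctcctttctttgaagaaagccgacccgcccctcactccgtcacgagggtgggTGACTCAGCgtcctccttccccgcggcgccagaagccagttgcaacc
The SLC38A2 window held neither set of letters and is not shown, though its gaps between these duplicates, 1.60 and 1.57, were wider than that of SLC3A2. The SLC3A2 gap of 1.09 was matched or exceeded by 16.3% of the tested probe sets. The windows shown therefore do not link a match to the split. In SLC1A5, 2 windows held 1 match each.

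The Fadu comparison asked whether the carriers differed between invasion subline and parent. None of the 12 tested member probe sets passed limma at an adjusted p under 0.05, as against 0.0198% of all probe sets, and 1 had an unadjusted p under 0.05, against 1.75% of all. That one was SLC1A3, at 4.97 ± 0.602 in the subline and 6.30 ± 0.602 in the parent (SD, n = 2 arrays each), a log2 difference of -1.33 (SE 0.450, adjusted p = 1). For SLC1A3, subline replicate 1 had 4.54, just above the dim limit of 4.52, so the size of its difference is approximate. SLC7A11 had differences of -1.71 (SE 1.41), -1.23 (SE 1.14) and -1.23 (SE 0.854) by its 3 probe sets. Both subline arrays were below both parent arrays in 5 of 12 probe sets, namely SLC1A3, all 3 of SLC7A11 and 1 of SLC1A4, where 17% of all probe sets did so, and above in 2, SLC3A2 and SLC7A5, where 15.5% did. The median over the 12 was -0.17, against -0.01 over all probe sets. The SE is shared by the 6 groups in the fit, and for SLC7A11 (217678_at) the SD of duplicates was 4.20 in the labelled Detroit subline, against 0.0195 to 1.17 in the other 5 groups.

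In the OECM1 comparison, 0 of 12 passed limma (0.00661% of all probe sets did) and 0 had an unadjusted p under 0.05 (3.29% of all did). The largest differences were 0.53 for SLC7A11 by 217678_at (SE 1.41, adjusted p = 1.00) and 0.53 for SLC1A5 (SE 0.371, adjusted p = 1.00), and SLC1A3 had -0.27 (SE 0.450). Both subline arrays were above both parent arrays in 2 of 12, SLC7A5 and 1 probe set of SLC7A11 (12.7% of all), and below in 0 (12% of all). The median was 0.13, against 0.00 over all. The effects of the 2 lines were then set against each other. Of the 12 probe sets, 0 passed the test of that difference, as against 0% of all, and 0 had an unadjusted p under 0.05, against 2.29% of all. SLC1A3 differed between lines by 1.06 (SE 0.637) and SLC7A11 by up to 2.24 (SE 2.00). With 2 arrays a group, 7.2% of simulated 2-fold changes and 58.2% of 4-fold changes were found in the Fadu comparison over 15124 probe sets. The simulation gave a probe set the same normal spread in every group and drew arrays independently. In the real arrays the spread of duplicates differed between groups, so these rates may not hold for them.

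Between the unselected lines, the mean of the OECM1 parent was above that of the Fadu parent in all 12 tested probe sets, which read 7 genes. The share of all probe sets with a higher OECM1 mean was not counted. The median log2 difference was 1.01, against -0.03 over all probe sets. The smallest differences, 0.04 to 0.14 in SLC1A4 and 0.17 in SLC7A11 by 207528_s_at, came with overlapping arrays. By limma 0 of 12 passed (2.43% of all did), 4 had an unadjusted p under 0.05 (14.2% of all), and 8 had both OECM1 arrays above both Fadu arrays (20.2% of all). The smallest adjusted p was 0.0922, for SLC7A5, at 11.26 ± 0.0405 in the OECM1 parent and 10.24 ± 0.158 in the Fadu parent. SLC1A3 had a difference of 1.51 (SE 0.450, adjusted p = 0.126) and SLC3A2 one of 1.08 (SE 0.422, adjusted p = 0.262).

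Because no member passed between subline and parent in either line, a comparison of all 4 OECM1 arrays with all 4 Fadu arrays was added after these values had been seen. By limma SLC1A3, SLC7A5, SLC1A5 and SLC38A2 were higher in OECM1. In all, 5 of 12 probe sets passed, against 13.7% of all. All 5 were higher in OECM1, where 7.36% of all probe sets were higher and 6.38% lower. An unadjusted p under 0.05 was reached by 8 of 12, against 27.6% of all, and 8 had every OECM1 array above every Fadu array, where 11.6% did. SLC1A3 was 4.11-fold higher, at 7.67 ± 0.486 in OECM1 and 5.63 ± 0.912 in Fadu (SD, n = 4 arrays each, log2 difference 2.04, SE 0.318, adjusted p = 0.00238). Fadu invasion subline replicate 1 had 4.54, just above the dim limit of 4.52, so this fold is approximate. SLC38A2 was 2.75-fold higher by 220924_s_at (adjusted p = 0.0252) and 2.39-fold by 218041_x_at (adjusted p = 0.0389). SLC1A5 was 2.17-fold higher (log2 difference 1.12, SE 0.262, adjusted p = 0.0186) and SLC7A5 was 1.93-fold higher (0.95, SE 0.194, adjusted p = 0.00983). Just short of the threshold were SLC7A11 by 209921_at, at 9.23 ± 0.315 in OECM1 and 6.65 ± 0.829 in Fadu (difference 2.59, SE 0.803, adjusted p = 0.0564), and SLC3A2, at 10.30 ± 0.445 in OECM1 and 9.34 ± 0.234 in Fadu (0.96, SE 0.298, adjusted p = 0.0569). The 3 tested SLC1A4 probe sets had differences of 0.18 to 0.23 with adjusted p from 0.707 to 0.846.

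Single arrays decided part of these calls. Only the SLC1A3 call held when each of the 8 arrays was left out in turn (adjusted p up to 0.0153 over 18 alternatives). The SLC7A5 call ended only without Fadu invasion subline replicate 2 (adjusted p = 0.0555, range over its alternatives 0.00360 to 0.0555). The SLC1A5 call ended without either Fadu invasion array, either Fadu parent array or OECM1 invasion subline replicate 1 (adjusted p up to 0.0745). The SLC38A2 call by 218041_x_at ended without any 1 of the 8 arrays (up to 0.138), and that by 220924_s_at without any of them except Fadu parent replicate 1 and OECM1 invasion subline replicate 2 (up to 0.101). The count of 5 was 1 to 4 when 1 of the 8 arrays was left out and 2 with the replicate number as a block. It was 8 without either or both of the arrays labelled Detroit invasion subline. Without both, SLC3A2 and 2 SLC7A11 probe sets also passed (limma, adjusted p = 0.0219, 0.00155 and 0.00384). The calls over all 15124 probe sets, 2078 with all arrays, moved too. They were 1022 with the block and 1016 to 2677 when single arrays were left out. Arrays of a line share 1 origin, so this test compares these 2 lines as grown here.

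**Figure D4:**
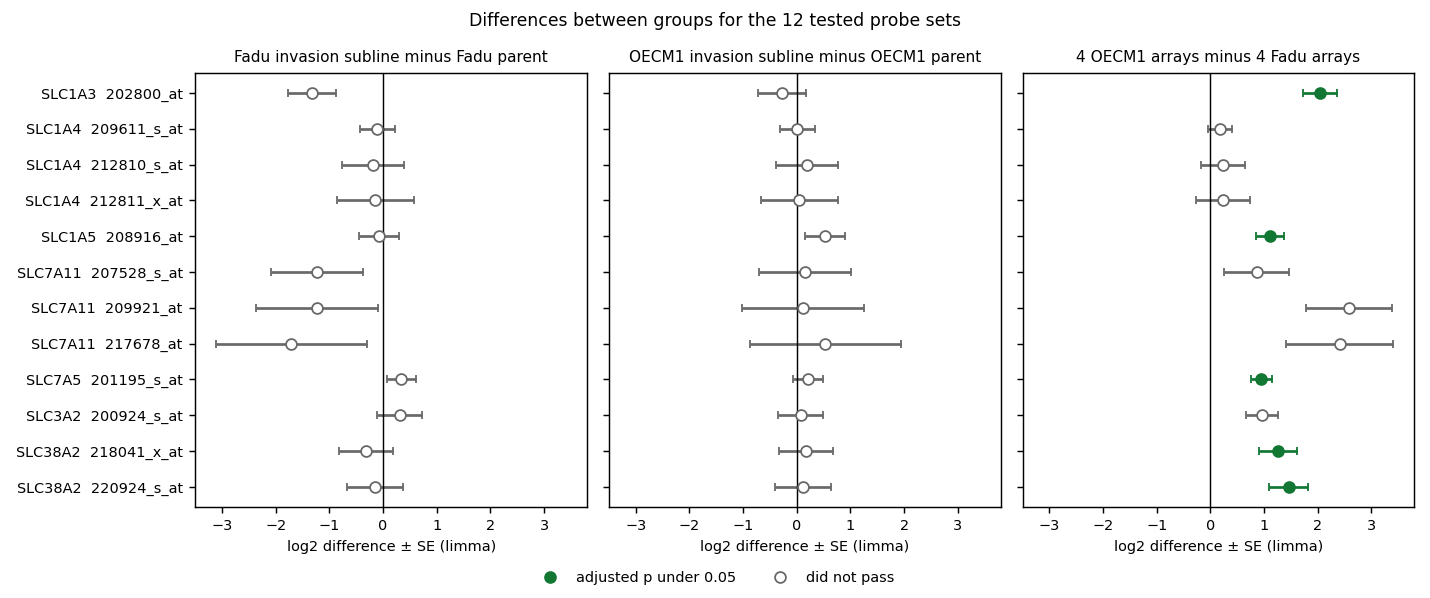
Log2 difference with its SE from limma for the 12 tested probe sets in 3 comparisons, Fadu invasion subline minus Fadu parent, OECM1 invasion subline minus OECM1 parent, and the 4 OECM1 arrays minus the 4 Fadu arrays, in green and filled where the adjusted p was under 0.05. No point is filled in the first 2 panels, and 5 are in the third, where SLC1A3 lies at 2.04.

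Genes around these carriers were compared by lists, each gene by its brightest probe set. Among 22 tested amino acid transporters outside the set, 0 passed in the Fadu, the OECM1 or the parent comparison, and 0 in the comparison of 4 with 4 arrays, where the median was 0.03. Among 23 metabolic genes, 0 passed within Fadu or OECM1, and 1 was lower in the OECM1 parent than in the Fadu parent. It was PSPH, the last enzyme of serine synthesis, which averaged 3.28 in the OECM1 parent, below the dim limit of 4.52, and 7.31 in the Fadu parent (adjusted p = 0.00364, limma). The OECM1 level is too dim for a fold to be given. Over 4 against 4 arrays 2 of the 23 were lower in OECM1 and 0 higher, where 6.38% of all probe sets were lower and 7.36% higher, so the list stood near the share of all probe sets. They were PSPH, again below the limit in OECM1, and GCLM, a subunit of the glutathione synthesis enzyme, 3.41-fold lower in OECM1 (adjusted p = 0.0386). Of 22 regulators, 0 passed within either line or between parents. Over 4 against 4 arrays, 4 were higher in OECM1 and 0 lower, against the same shares of all probe sets. These, like GCLM, were named after their values were seen. The stress response gene DDIT4 was 3.94-fold higher and the endoplasmic reticulum chaperone gene HSPA5 3.06-fold higher (adjusted p = 0.0418 and 0.0280). The stress kinase gene EIF2AK3 averaged 6.13 in the OECM1 subline and 5.80 in the OECM1 parent, against 4.06 in the Fadu subline and 4.08 in the Fadu parent. BACH1, a repressor of NRF2 target genes, averaged 5.11 in the OECM1 subline and 4.66 in the OECM1 parent, against 3.38 in the Fadu subline and 3.57 in the Fadu parent. Both were below the dim limit in Fadu and entered the test through the OECM1 arrays where they are higher, so no fold is given and their calls are no support for the list.

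The Detroit comparison is given as levels only. SLC1A4 by 212810_s_at had both labelled subline arrays above both parent arrays, by 1.44 on average, though replicate 1 had 5.31 and the higher parent array 5.27. It was the only 1 of 12 with its arrays all above (19.8% of all probe sets), SLC1A3 the only 1 with them all below (18.8% of all), and the other 10 overlapped. Among the 23 tested metabolic genes, 3 were named after their values were seen. They are those under the threshold in the fit, where 457 of all 15124 probe sets were. They were thus picked by this same comparison, and nothing is read from their number. Glutamine synthetase, GLUL, the enzyme that turns glutamate into glutamine, averaged 7.41 ± 0.283 in the labelled subline and 9.66 ± 0.312 in the Detroit parent, and the glutathione reductase gene GSR 5.84 ± 0.0615 and 7.47 ± 0.200 in the same groups, while PSPH averaged 7.67 ± 0.795 and 4.76 ± 1.30.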

How the data were processed

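The deposited values are log2 expression values on 12 arrays, which the authors made with RMA, per the submitters' processing notes. These notes also name Partek 7. Genome build and annotation are not given in the sources used here. RMA draws low values together, so folds of dim probe sets are understated, and no detection call came with the values. The number of arrays limits precision. The platform table gave 1 symbol for 19065 of 22215 probe sets that are not controls, several for 1043 and none listed for 2107. All 8 genes matched the RefSeq table.

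Tests used 15124 probe sets, those with at least 2 arrays above the 40th percentile of all values (4.52). They include 12 of the 15 member probe sets, from 7 genes. Group means were fitted over all 6 groups (limma 3.58.1, R 4.3.3, moderated variances with an intensity trend). Benjamini-Hochberg adjustment ran over all tested probe sets, with a threshold of 0.05. Whether duplicates were separate cultures is not said in the labels, so p-values reflect the spread between these arrays, which could be technical. The exact permutation test of 2 against 2 arrays cannot go below 0.333 and was not used. The fit was tested on simulated data.

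Members, lists and tests were chosen with earlier results of these data known. Named genes are all member probe sets, called genes of the lists (up to 4 each way per comparison) and the 5 nearest profiles of SLC1A3 and SLC7A11, with exceptions named as such. List genes are counted by their brightest probe set. Alternatives were other filters, 1 probe set per gene, only the groups compared, a replicate block, array weights, centring, the ACTB ratio, no trend, and leaving out arrays.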

Additional observations from a re-analysis of the deposited data

Results flagged for a closer look

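SLC7A11 by probe set 217678_at had subline and parent arrays in opposite order in the 2 lines, without overlap. Both Fadu invasion subline arrays were below both Fadu parent arrays, and both OECM1 invasion subline arrays were above both OECM1 parent arrays. In OECM1 the groups barely separated, with 9.36 and 9.33 in the subline and 9.23 and 8.39 in the parent. Of all probe sets, 17% were below in Fadu and 12.7% above in OECM1, and the share with both was not counted. The OECM1 difference minus the Fadu difference was 2.24 on the log2 scale (SE 2.00), and limma did not find it beyond the spread (adjusted p = 1.00, unadjusted p = 0.286). The other 2 SLC7A11 probe sets had 1.34 and 1.38, and their OECM1 groups overlapped.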

How the results depend on the processing

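Within Fadu, within OECM1 and for the difference between their effects, 0 member probe sets were called under every alternative run (limma), and the replicate block left these counts at 0. Between the parents the count of 0 became 1 with only the groups compared (SLC7A11 209921_at, adjusted p = 0.0429) and 1 without both arrays labelled Detroit invasion subline (SLC7A5, adjusted p = 0.0498). The count of 5 for 4 OECM1 against 4 Fadu arrays became 8 with only the groups compared, where 2733 of all probe sets passed. It was also 8 without both arrays labelled Detroit invasion subline. With the replicate block it was 2, and SLC1A5 and both SLC38A2 probe sets did not pass (limma, adjusted p = 0.0716, 0.104 and 0.0782). The block joins same-numbered arrays, which deviated oppositely, so nothing about the carriers is read from its counts. The count of 5 ran from 1 to 8 when single arrays were left out. For the Detroit comparison, which is a description, the number of member probe sets under the threshold was 1 to 5 when single arrays were left out, and nothing is read from it. Over all probe sets, single arrays moved the calls from 1016 to 2677 (2078 with all arrays) between lines, from 71 to 611 (367) between parents, and from 174 to 1366 (457) in the Detroit comparison. Other counts over all probe sets that differed by more than 1.5 times were, between parents, 133 with the replicate block, 610 without both labelled Detroit subline arrays and 654 with the ACTB ratio, between lines 1022 with the block, and in the Detroit comparison 44 with only its arrays, 183 with the block and 262 with array weights. The cause was not tested. Keeping 1 probe set per gene, which tests fewer probe sets, gave 1325 between lines and 295 in the Detroit comparison. In Fadu the 3 calls were 0 to 5 and in OECM1 the 1 call was 0 to 6 over the alternatives. No called member changed direction. Uncalled values changed sign 8 times of 162 in Fadu, 14 of 162 in OECM1, 10 of 162 between parents and 2 of 210 between lines, mostly when 1 array was left out. Same-numbered subline and parent arrays deviated oppositely (correlations over probe sets of -0.17, -0.41 and -0.41 in Detroit, Fadu and OECM1), so the numbers were not taken as pairs. The replicate block joins arrays by that number, so it cannot account for likeness between arrays of different number. In the ACTB ratio, subline replicate 2 and parent replicate 1 were the higher arrays, at 0.40 and 0.55 in Fadu and 0.63 and 0.87 in OECM1. Their duplicates had -0.05 and -0.23 in Fadu and 0.06 and 0.04 in OECM1. Whether such arrays were processed together is not said in the labels and was not tested. Dim signal limits SLC1A1 and SLC1A4 (209610_s_at), which were not tested.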
